A study of Mus musculus with 21 samples.

Results

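Terminal maturation was followed here in the erythroid and the myeloid lineage at once, as the 6 arrays of the mature fractions Ter119 and Mac1Gr1 against the 6 arrays of their committed progenitors CFUe and GMP, 12 of the 21 arrays of the series. Lineage was kept as a block, so that CFUe was set against Ter119 and GMP against Mac1Gr1, and the members were taken from the sample titles alone. The fractions came from C57BL/6 mouse bone marrow, with no treatment named, and each was sorted and read on 3 arrays, with total RNA labelled with Cy3. The labels describe CFUe as lin- ckit+ sca1+ cells lacking CD150, CD105 and Fc gamma receptors, the same markers as they give for PreGM, and GMP as lin- ckit+ sca1+ CD150- cells with Fc gamma receptors. Lin stands for B220, CD3, CD4, CD8, CD41, Mac1, Gr1 and Ter119. Ter119 cells were CD71+ Ter119+ and Mac1Gr1 cells Mac1+ Gr1+, and the labels name no lineage exclusion for either. Nothing states whether the 3 arrays of a fraction came from separate animals, so p values measure the spread between these samples, which may be technical.

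Erythroid and granulocytic precursors end their lives as very different cells, a red cell filled with haemoglobin and a neutrophil filled with granules, yet both get there by leaving a phase of fast growth. Dividing progenitors make ribosomes, nucleotides and folding machinery at a high rate, largely under the transcription factor MYC, and copy their DNA at each round with proteins encoded by E2F target genes. In late maturation MYC is replaced at its partner MAX by MXD proteins, inhibitors of cyclin-dependent kinases build up, divisions stop and the nucleus condenses. The red cell then expels its nucleus, and the neutrophil folds its own into lobes.

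Genes of ribosome biogenesis, translation and the chaperonins fell at both terminal steps with similar medians, DNA replication genes fell at both but further in the myeloid step, and mitotic genes fell mainly in the myeloid step. Most rises did not keep their call when the arrays were scaled to spike-in RNAs. Levels are log2 signals relative to the 75th percentile of their own array, which is 0 on this scale, and a change is a difference of such levels. Calls required a limma p under 0.05 after Benjamini-Hochberg adjustment over all probes tested, together with a change of 2-fold or more. Of 28216 probes tested, 15942 (56.5%) were called in the pooled comparison, 8369 higher (29.7%) and 7573 lower (26.8%) in the mature fractions. The erythroid step alone gave 8371 higher (29.7%) and 8180 lower (29%), and the myeloid step 8461 higher (30%) and 8019 lower (28.4%). A change was taken as common when it was called the same way in the pooled comparison and in each step. There were 5162 common rises (18.3% of probes) and 5575 common falls (19.8%), against 787 probes (2.79%) called in opposite directions. With 1 probe for each of 13847 genes, 2411 genes were common rises (17.4%), 3117 common falls (22.5%) and 462 opposite (3.34%). At this level, 29.8% of genes were called higher and 32.5% lower in the erythroid step, 27.6% and 31.3% in the myeloid step, and 28.3% and 29.7% in the pooled comparison. The steps were called different with the erythroid change above the myeloid for 22.9% of genes and below it for 19%. In 47% of genes the 6 mature and the 6 progenitor arrays did not overlap.

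The steps share no array, and their changes correlated at a Pearson r of 0.67 (Spearman rho 0.69) over the 28216 probes, of which 77.7% had the same sign. This is a description across probes, which share the arrays they were read on. Of the probes higher in Ter119 than in CFUe, 61.7% were common rises, and of those higher in Mac1Gr1 than in GMP, 61.0%. For falls the shares were 68.2% and 69.5%. The size of the change was closer between lineages for the falls: the steps were called different for 737 of the 3117 common falls (23.6%) and for 1083 of the 2411 common rises (44.9%), against 41.9% of all genes. A step of 529 common rises and of 292 common falls had no array above background in its dimmer fraction. The change there rests on a signal not told apart from background, so its size may be overstated. Calls and medians use it as measured. The median size of the difference between steps was 0.57 for common falls and 1.02 for common rises.

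**Figure D1:**
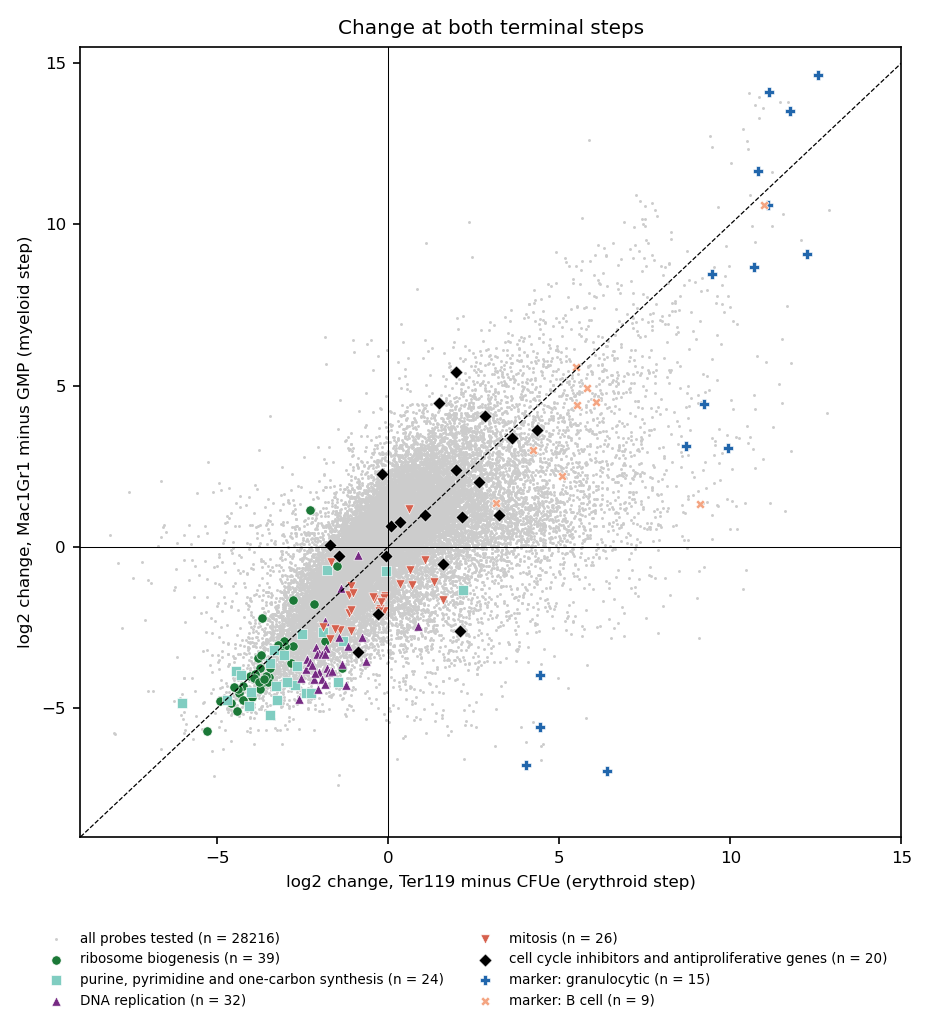
Change at the erythroid step (horizontal axis, Ter119 minus CFUe, log2) and at the myeloid step (vertical axis, Mac1Gr1 minus GMP, log2) for each of 28216 probes tested (grey) and for the genes of 7 lists (coloured). The dashed line marks equal change. Ribosome biogenesis genes lie along it, apart from Polr1a and Ubtf near or above 0 on the vertical axis, most DNA replication and mitosis genes lie below it, and granulocytic genes lie in the upper right, with 4 in the lower right.

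The scale matters for these directions. The 75th percentile of the mature arrays lay further below the synthetic spike-in RNAs, which were added per mass of total RNA. The spike-ins stood 3.96 to 4.61 above it in CFUe and 2.30 to 3.19 in GMP, against 5.25 to 5.94 in Ter119 and 4.80 to 5.02 in Mac1Gr1 (log2). Scaled to the spike-ins, the median pooled change of all probes moved from 0.14 to -1.57. The pooled calls became 2304 higher and 17396 lower, with 1335 common rises and 14524 common falls. This scale lowers every change, which fixes the direction of the falls, so their calls there say nothing of their stability, while 1335 of the 5162 common rises kept theirs. Quantile scaling gave 4369 common rises and 5960 common falls. Rises below are therefore relative to the 75th percentile, and the values on the spike-in scale stand beside the lists that they turn.

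Transcripts of other cell types moved with maturation and stand beside every rise. All 15 granulocytic markers tested were higher in Ter119 than in CFUe, and the median of the list was -3.99 to -1.13 on the CFUe arrays, 6.21 to 6.75 on Ter119, 0.05 to 1.17 on GMP and 7.96 to 8.36 on Mac1Gr1. The lactoferrin gene Ltf stood at -3.99, -3.24 and -0.84 in CFUe, 9.02, 9.09 and 9.08 in Ter119, -3.19, -4.13 and -4.0 in GMP and 9.72, 9.72 and 9.8 in Mac1Gr1. The Ter119 arrays carried granule transcripts at levels near those of Mac1Gr1, and CFUe replicate 3 stood above the other CFUe arrays. Without that array, 5122 probes were common rises and 5530 common falls. B cell markers did the same, with 9 of 9 higher in Ter119, 8 of 9 in Mac1Gr1 and 8 common rises, and list medians of -3.86 to -3.4 in CFUe and -4.28 to -3.7 in GMP against 2.82 to 3.37 in Ter119 and 0.80 to 1.59 in Mac1Gr1. Of 11 macrophage markers 8 were common rises, and of 8 T cell markers 4.

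Red cell transcripts were found in the myeloid fraction as well. Of 11 erythroid markers tested, 7 were higher in Ter119 and 6 in Mac1Gr1, with 4 common rises, and the list median was 0.16 to 0.38 in CFUe, 3.91 to 4.62 in Ter119, -5.51 to -4.05 in GMP and -1.9 to -1.66 in Mac1Gr1. The alpha globin gene Hba-a1 stood at 2.16, 2.55 and 2.51 in CFUe, 11.49, 11.22 and 11.03 in Ter119, -1.76, -1.6 and -1.4 in GMP and 2.73, 3.1 and 3.24 in Mac1Gr1. In Mac1Gr1, 4 of the 11 were not well above background on any array. Mast cell and basophil markers rose in Ter119 (7 of 7), where 4 of 7 fell in the myeloid step, 1 of 7 megakaryocyte markers was a common rise, and no stem cell marker was. The part of other cells in the common rises was not tested, and in bulk samples a change in the share of cells cannot be told apart from a change of RNA per cell.

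**Figure D2:**
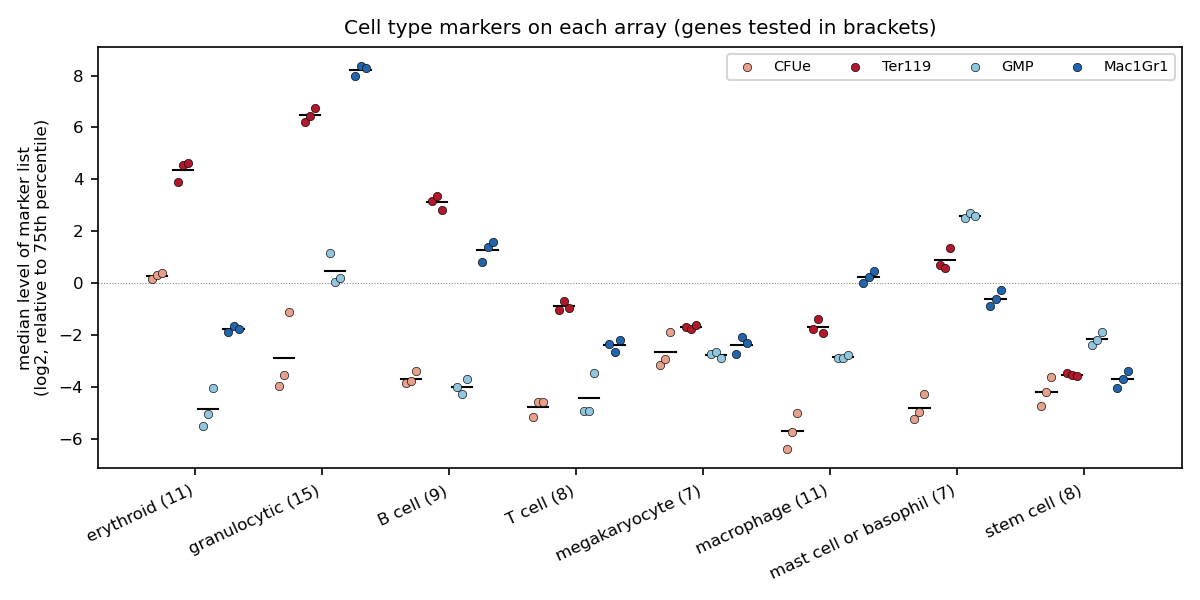
Median level of each cell type marker list (vertical axis, log2 relative to the 75th percentile of the array) on each of the 12 arrays, with 3 points per fraction and a bar at their mean. The granulocytic median is high on the Ter119 as well as the Mac1Gr1 arrays, and the B cell median is above 0 on all 6 mature arrays and below -3 on all 6 progenitor arrays.

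Ribosome biogenesis gave the clearest common change. Of 39 genes tested, 38 were lower in the pooled comparison and 37 were common falls, against 22.5% of all genes, with a median change of -3.7 in the erythroid step and -4.0 in the myeloid step. The medians of all genes were -0.09 and 0.06. Gar1, which encodes a core protein of the particles that turn uridines of ribosomal RNA into pseudouridine, stood at 2.41, 2.81 and 2.71 in CFUe, -3.13, -2.44 and -2.45 in Ter119, 1.88, 1.92 and 1.84 in GMP and -4.44, -3.47 and -3.59 in Mac1Gr1. All 6 mature arrays were below all 6 progenitor arrays, and Gar1 fell by 5.31 ± 0.26 (SE) in the erythroid step and by 5.72 ± 0.26 in the myeloid step. The pooled change was -5.52 ± 0.20 (adjusted p 9.65e-10, limma), and the difference between the steps, 0.40 ± 0.37, was not called.

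The falls ran through the stages of ribosome assembly. Npm1, an abundant nucleolar chaperone, stood at 8.17, 8.33 and 8.34 in CFUe, 4.21, 4.33 and 4.65 in Ter119, 7.26, 7.28 and 7.37 in GMP and 3.16, 3.29 and 3.26 in Mac1Gr1, a change of -3.89 and -4.06 in the erythroid and myeloid steps. Other proteins of the small nucleolar particles fell alike, with erythroid and myeloid changes of -3.99 and -4.65 for Dkc1, -4.35 and -4.52 for Nop58, -3.69 and -4.24 for the methylase gene Fbl and -4.04 and -4.0 for Nhp2. In large subunit assembly, changes were -4.59 and -4.86 for Wdr12, -3.02 and -3.09 for Pes1 and -2.8 and -3.09 for Bop1, which form a complex, and -4.91 and -4.77 for the nucleolar GTPase gene Gnl3. Among subunits of RNA polymerase I, Polr1b changed by -4.5 and -4.36 and Polr1e by -3.1 and -3.28. The exceptions were Polr1a, its largest subunit, with -2.29 and 1.15, called in opposite directions, and the polymerase I factor gene Ubtf, with -1.51 and -0.59, called in the erythroid step and, at -1.05, just past 2-fold in the pooled comparison, but not in the myeloid step. The myeloid rise of Polr1a was under 2-fold after normexp background correction (0.96) and in the series table (0.91). It was negative on the spike-in scale. The steps were called different for 5 of the 39, Nop2, Noc4l, Ebna1bp2, Polr1a and Tcof1.

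Translation factors fell by less. Of 35 initiation and elongation factor genes, 31 were common falls, with medians of -2.42 and -2.31. Changes were -2.76 and -2.54 for Eif4e, which binds the mRNA cap, -2.37 and -2.41 for its helicase partner Eif4a1, -2.66 and -3.4 for Eif2s1 and -2.42 and -2.26 for the elongation factor gene Eef2. Eif4ebp1, whose product holds Eif4e inactive, moved in opposite directions (-1.77 and 1.06, the myeloid change being under 2-fold with quantile scaling and negative on the spike-in scale), and Eif5 rose in the erythroid step alone by the calls (1.64), with 0.31 in the myeloid step and a called difference. Of 20 aminoacyl-tRNA synthetase genes, which charge tRNAs with amino acids, 16 were common falls with a median pooled change of -2.2, from -3.58 for Iars to -0.04 for Dars, which was not called, though another Dars probe was a common fall (-2.28 and -1.45).

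Genes for making nucleotides fell too, and further in the myeloid step. Of 24 genes of purine, pyrimidine and one-carbon synthesis, 21 were common falls, with medians of -3.01 and -4.09. Cad, which encodes the enzyme of the opening steps of pyrimidine synthesis, stood at 4.69, 4.82 and 4.71 in CFUe, 0.04, 0.09 and -0.10 in Ter119, 3.64, 3.6 and 3.39 in GMP and -1.54, -1.13 and -0.99 in Mac1Gr1. The changes of -4.73 ± 0.15 and -4.77 ± 0.15 differed by 0.04 ± 0.21 (SE). Another 2 probes of Cad gave the same call and 1 gave none. In purine synthesis, Ppat changed by -4.08 and -4.93 and Gart by -4.46 and -3.84. Phgdh, Psat1 and Shmt2, which make serine and pass its carbon on, fell further in the myeloid step, with -3.45 and -5.23 for Phgdh, -2.26 and -4.53 for Psat1 and -2.4 and -4.54 for Shmt2, each with a called difference, whereas Mthfd1, which handles folate units, fell further in the erythroid step (-6.04 and -4.84, also called different). The cytosolic Shmt1 was called higher in the erythroid step and lower in the myeloid step (2.2 and -1.36), while another probe of it was a common fall (-3.01 and -5.52). Differences were called for 13 of the 24, 11 of them with the larger fall in the myeloid step or, for Shmt1, a fall there alone.

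All 12 genes of the chaperonin and mitochondrial chaperone list were common falls, with medians of -3.39 and -3.0. The mitochondrial chaperonin gene Hspd1 stood at 7.2, 7.19 and 7.21 in CFUe, 2.42, 2.8 and 2.72 in Ter119, 6.1, 6.13 and 5.93 in GMP and 1.85, 2.05 and 2.01 in Mac1Gr1. The 8 subunits of the cytosolic chaperonin, which folds actin and tubulin among others, fell by pooled changes of between -4.27 (Cct3) and -1.93 (Cct7). Splicing factor genes fell less, with 23 of 35 common falls and a median pooled change of -1.64. The Sm core genes Snrpd1 (-2.88 and -3.52) and Snrpf (-2.91 and -3.6) fell most among those named here, while Srsf5, at 0.28 and 1.12, was called higher in the myeloid step only, with -1.1 (called) and -0.91 (not called) on the spike-in scale.

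**Figure D3:**
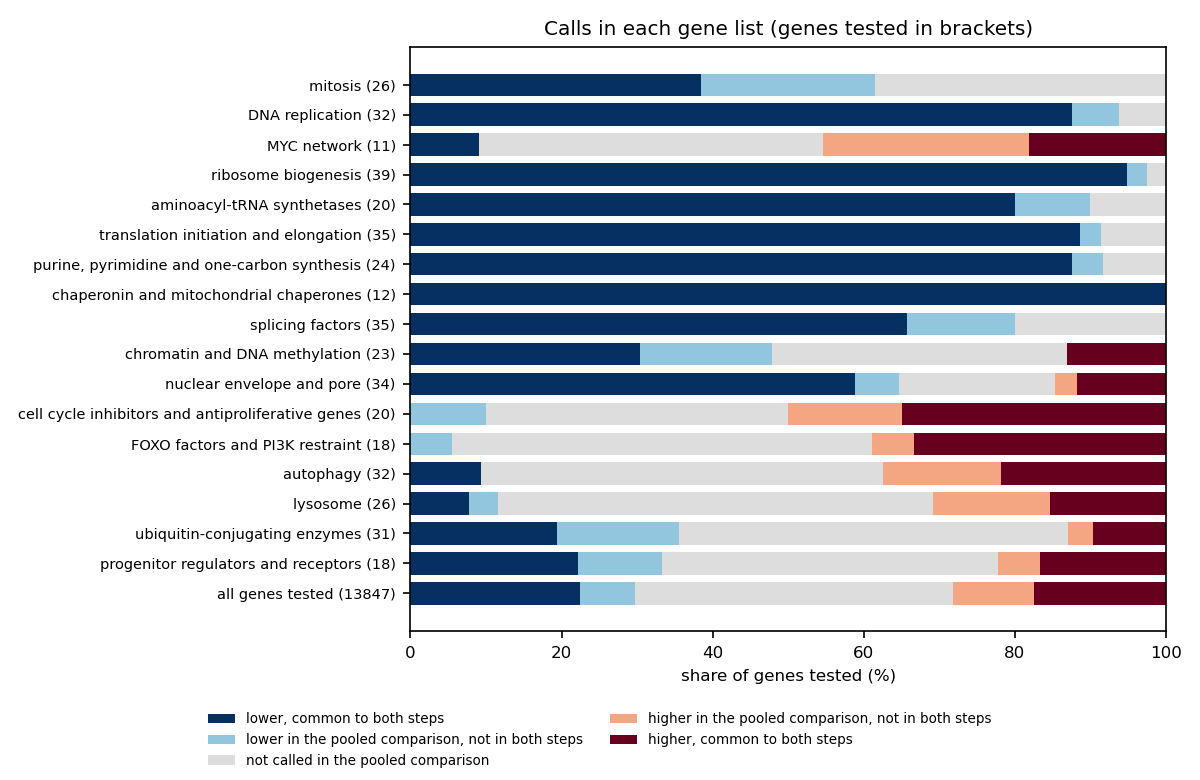
Share of the genes tested in each list (horizontal axis, percent) that were called lower or higher in the pooled comparison, dark where the change was also called in each step. Common falls make up 80% to 100% of 6 lists and 22.5% of all genes tested, and common rises reach 35% in the list of cell cycle inhibitors against 17.4%.

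Myc fell and its competitor Mxd1 rose at both steps. Granulocytic markers rose in Ter119 as well, and the part of other cells in the rise of Mxd1 was not tested. Myc stood at 2.71, 2.56 and 4.14 in CFUe, -0.63, -0.60 and -0.45 in Ter119, 3.02, 3.07 and 3.07 in GMP and -2.2, -1.63 and -1.81 in Mac1Gr1, with CFUe replicate 3 above the other arrays of its fraction and no overlap between progenitor and mature arrays. Mxd1, which competes with Myc for their shared partner, stood at 0.26, 0.22 and -0.17 in CFUe, 5.23, 5.39 and 5.32 in Ter119, 0.90, 0.75 and 0.87 in GMP and 6.6, 6.86 and 6.77 in Mac1Gr1. Its rise of 5.21 ± 0.14 and 5.91 ± 0.14 (pooled adjusted p 2.24e-10, limma) left a gap of more than 4 between the highest progenitor and the lowest mature array. Mxi1, a relative of Mxd1, rose by 1.35 and 1.63, which turned negative on the spike-in scale. Of the 11 genes tested, these made up the 2 common rises (18.2%, against 17.4% of all genes). Myc was the 1 common fall (9.09%, against 22.5%). The list was thus near or under the shares of all genes. Max rose in the myeloid step (0.27 and 2.5) and Mxd3 in the erythroid step (4.12 and 0.49), each with a called difference. On the spike-in scale, where the median gene changed by -1.69, Mxd1 was still called higher in the pooled comparison, the only gene of the list that was.

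MYC binds the E-box CACGTG. This motif, which reads the same on both strands, was searched in RefSeq promoters of the GRCm38.p6 assembly from 250 bases before to 50 after the start, and found for 365 of 2550 common falls with a promoter in the table (14.3%) and 176 of 1882 common rises (9.35%), against 11.1% of all genes tested and 8.09% of all genes in the table. In the ribosome biogenesis list 7 of 33 promoters held it and in the nucleotide list 3 of 22, and among lists that did not fall 8 of 19 in the lysosome list. The 120 bases before the start are shown for 3 common falls of these lists, the E-box in capitals, to show the element that the MYC network reads.
Atic (chr1:71557036-71557155, + strand): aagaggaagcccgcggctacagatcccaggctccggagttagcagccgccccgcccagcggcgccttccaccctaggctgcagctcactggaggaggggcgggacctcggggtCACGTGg
Impdh2 (chr9:108560316-108560435, + strand): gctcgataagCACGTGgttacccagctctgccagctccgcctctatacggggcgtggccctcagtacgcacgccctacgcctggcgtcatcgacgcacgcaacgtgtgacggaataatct
Nop2 (chr6:125131763-125131882, + strand): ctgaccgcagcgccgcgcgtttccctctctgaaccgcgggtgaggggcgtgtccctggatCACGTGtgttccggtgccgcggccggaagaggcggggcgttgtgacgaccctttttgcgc
Atic encodes the enzyme of the last steps of purine synthesis and changed by -4.01 and -4.49, Impdh2 opens the way to guanine nucleotides and changed by -3.04 and -3.35, and Nop2, a ribosomal RNA methylase gene, changed by -3.7 and -2.2. A match is a description of these letters in this window, not a binding site.

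DNA replication genes fell in both lineages but not to the same depth. Of 32 tested, 28 were common falls, with a median change of -1.89 in the erythroid step and -3.55 in the myeloid step. The difference between the steps was called for 28 of 32 with the larger fall in the myeloid step, or for Lig1 a fall there alone, against 22.9% of all genes with a called difference of that sign. Mcm6, a subunit of the helicase that opens origins, stood at 6.95, 7.04 and 7.2 in CFUe, 4.91, 5.27 and 5.24 in Ter119, 6.93, 6.99 and 6.76 in GMP and 2.62, 2.91 and 2.81 in Mac1Gr1. The progenitors were alike and Ter119 stayed above Mac1Gr1, for changes of -1.93 ± 0.14 and -4.11 ± 0.14 and a difference of 2.18 ± 0.20 (adjusted p 7.54e-06, limma). The clamp gene Pcna changed by -1.18 and -3.09, Cdc6, which loads the helicase, by -1.73 and -3.88, Tyms, for thymidylate, by -1.35 and -3.63, and the polymerase gene Pola1 by -1.84 and -4.25. With quantile scaling the erythroid falls of Pcna and Tyms, -0.76 and -0.85, were under 2-fold. Lig1, the ligase that seals Okazaki fragments, stood at 5.22, 5.51 and 5.53 in CFUe, 6.37, 6.27 and 6.19 in Ter119, 5.0, 5.12 and 4.96 in GMP and 2.46, 2.56 and 2.68 in Mac1Gr1, with 0.85 in the erythroid step, under 2-fold there and 1.35 with quantile scaling, and -2.46 in the myeloid step.

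Mitotic genes parted further. Of 26 tested, 11 were lower in Ter119 than in CFUe and 22 were lower in Mac1Gr1 than in GMP, against 32.5% and 31.3% of all genes. The medians were -0.34 and -1.61, and 10 were common falls (38.5%, against 22.5%). The difference was called for 17 with the erythroid change above the myeloid (65.4%, against 22.9% of all genes). Mki67, the proliferation antigen, stood at 6.47, 6.5 and 5.77 in CFUe, 6.64, 7.06 and 7.08 in Ter119, 5.32, 5.36 and 5.3 in GMP and 4.12, 4.05 and 4.22 in Mac1Gr1. Ter119 lay above CFUe (0.68 ± 0.20, under 2-fold, and 1.23 with quantile scaling) while Mac1Gr1 lay below GMP (-1.19 ± 0.20). Another Mki67 probe gave 1.28 in the erythroid step and -0.79, under 2-fold, in the myeloid step. Nusap1 and Ube2c, for a spindle protein and the ubiquitin-conjugating enzyme of mitotic exit, rose in the erythroid step and fell in the myeloid step, with 1.6 and -1.65 and 1.33 and -1.1. With the slide as a block the myeloid falls of Mki67 and Ube2c were under 2-fold (-0.993 and -0.86). The common falls held Cdk1 (-1.41 and -2.58), the kinase that starts mitosis, although another probe of it gave -0.12 and -1.23, and the checkpoint genes Mad2l1 (-1.92 and -2.48) and Bub1b (-1.56 and -2.55). Bub1 was called higher in the myeloid step (1.15), with 0.60 in the erythroid step, but its other probe was a common fall (-1.16 and -2.32).

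Promoters of these lists held different letters. GCGGGAA on either strand, an E2F element, was found in 12 of 25 DNA replication promoters and 0 of 20 mitosis promoters, against 8.82% of genes tested. TTTGAA, the core of the cell cycle homology region, was found in 14 of 20 mitosis promoters and 4 of 25 replication promoters, against 15.2%, and CCAAT in 17 of 20 and 15 of 25, against 42.6%. Over all common falls, GCGGGAA was in 12.8%, in 19.3% of the 435 with a called larger fall in the myeloid step and in 7.93% of the 164 with a called larger fall in the erythroid step, against 5.31% of common rises. None of these shares was tested, and none of the motifs holds another. The 120 bases before the start are shown for replication genes with GCGGGAA, or TTCCCGC where it lies on the other strand, in capitals, to show the element of E2F target genes.
Rpa2 (chr4:132768240-132768359, + strand): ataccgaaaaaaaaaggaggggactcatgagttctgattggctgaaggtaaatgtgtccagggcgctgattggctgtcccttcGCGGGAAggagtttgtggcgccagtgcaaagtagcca
Mcm7 (chr5:138171267-138171386, - strand): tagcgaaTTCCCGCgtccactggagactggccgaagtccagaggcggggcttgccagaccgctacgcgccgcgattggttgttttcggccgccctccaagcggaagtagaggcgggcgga
Prim1 (chr10:128015095-128015214, + strand): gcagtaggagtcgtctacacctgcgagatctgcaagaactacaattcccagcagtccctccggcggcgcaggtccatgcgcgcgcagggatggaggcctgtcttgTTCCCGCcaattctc
Rpa2 (single-strand DNA binding), Mcm7 (helicase) and Prim1 (primase) changed by -2.29 and -3.57, -1.81 and -3.77 and -1.63 and -3.84. For mitosis genes, TTTGAA and CCAAT, the latter read as ATTGG on the other strand, are in capitals.
Cdk1 (chr10:69352913-69353032, - strand): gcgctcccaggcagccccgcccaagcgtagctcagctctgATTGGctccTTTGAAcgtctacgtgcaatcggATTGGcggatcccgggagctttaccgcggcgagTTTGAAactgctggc
Cdc20 (chr4:118437344-118437463, - strand): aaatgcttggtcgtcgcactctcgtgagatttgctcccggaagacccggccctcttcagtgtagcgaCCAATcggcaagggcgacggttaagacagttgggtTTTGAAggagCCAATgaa
Cdc20, which activates the ligase that ends mitosis, changed by -1.15 and -1.5, the erythroid change being -0.67 with quantile scaling.

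**Figure D4:**
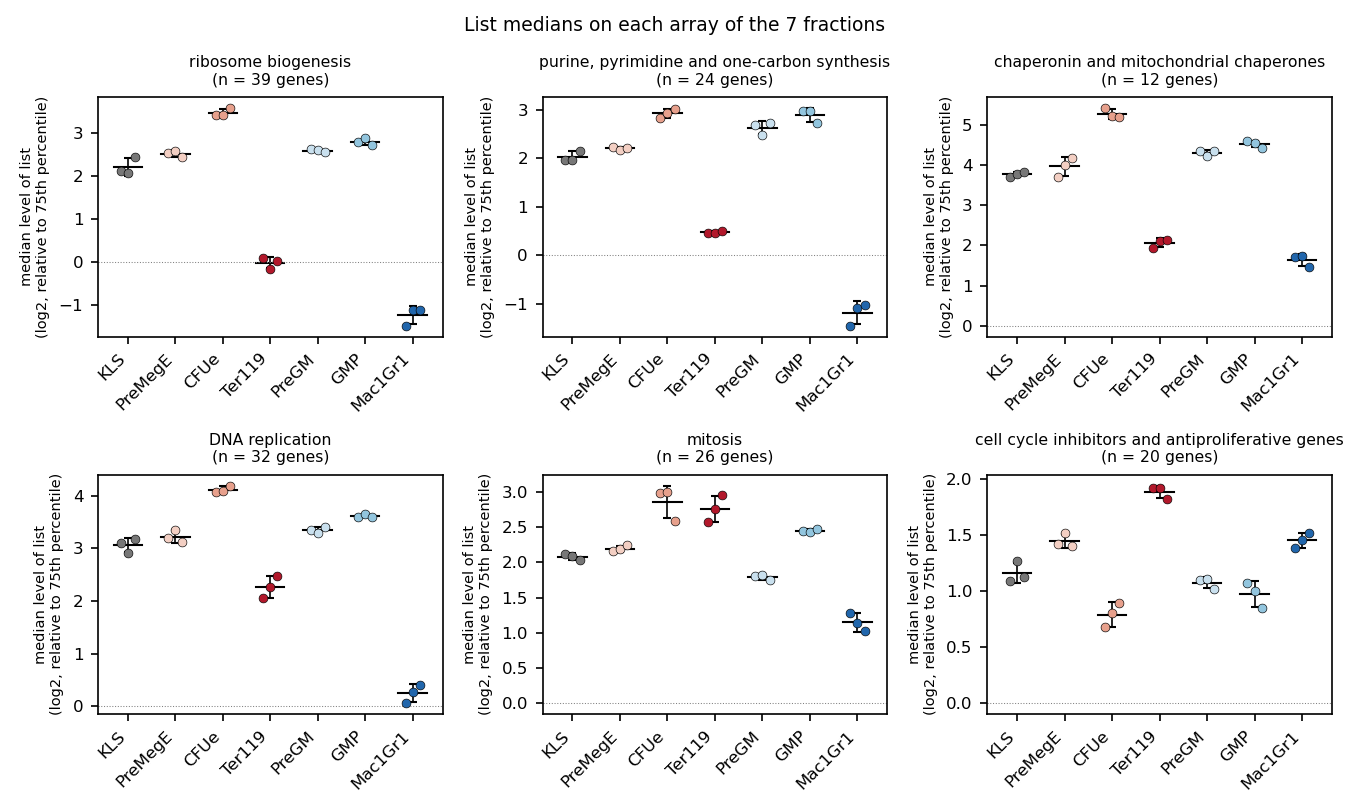
Median level of 6 gene lists (vertical axes, log2 relative to the 75th percentile of the array) on the 3 arrays of each of the 7 fractions, with the mean and SD over arrays. Ribosome biogenesis, nucleotide synthesis and chaperonin medians are highest in CFUe and GMP within their lineages and drop in Ter119 and Mac1Gr1, while the mitosis median of Ter119 stays near that of CFUe.

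The arrays that took no part in the comparison place these levels. The median of the ribosome biogenesis list, as a mean over 3 arrays, was 2.21 in KLS, 2.52 in PreMegE, 2.59 in PreGM, rose to 3.46 in CFUe and 2.79 in GMP, and was -0.01 in Ter119 and -1.23 in Mac1Gr1. Mature fractions were thus below KLS, the most immature fraction, on every array. For DNA replication, KLS stood at 3.07, Ter119 at 2.27 and Mac1Gr1 at 0.24. The mitosis median was 2.58 to 2.95 on the Ter119 arrays, close to the range of CFUe (2.59 to 3.0), and above KLS (2.03 to 2.12). On Mac1Gr1 it was 1.02 to 1.28, the lowest of the 7 fractions. These are descriptions of list medians, with no test.

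Within slides the direction of the falls was the same. Several arrays shared a slide, and slide 7 held both ends of the erythroid step, CFUe replicate 1 and Ter119 replicate 3. Their difference had a median of -3.52 for ribosome biogenesis, -1.65 for DNA replication and -0.28 for mitosis. No slide held both ends of the myeloid step. With the slide as a block over all 21 arrays, the pooled medians were -3.77, -2.77 and -1.03, against -3.79, -2.74 and -1.06 without it.

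Ranked by the smaller of the steps among genes well above background on all 12 arrays, with no overlap in either lineage, the 10 leading common falls were Nme4, Smyd2, Slc19a1, Srm, Gar1, Smo, Mt1, Mthfd1, Mcrip2 and Tspan4. Several belong to the growth machinery. Srm, which makes the polyamine spermidine, stood at 5.51, 5.84 and 5.72 in CFUe, 0.15, 0.41 and 0.44 in Ter119, 4.98, 5.2 and 4.97 in GMP and -0.88, -0.74 and -0.53 in Mac1Gr1. Slc19a1, the reduced folate carrier, changed by -5.45 and -5.66, though another probe of it gave -1.37 and -0.58 and no common call, and the folate gene Mthfd1 was given above. Nme4, a mitochondrial nucleoside diphosphate kinase, changed by -5.93 and -5.68 and the lysine methylase gene Smyd2 by -5.92 and -5.51. Outside that machinery, Smo, the transducer of Hedgehog signals, changed by -5.98 and -5.12, the metallothionein gene Mt1 by -5.41 and -4.86, Mcrip2 by -4.9 and -4.83 and Tspan4 by -4.93 and -4.79. Another Smo probe was also a common fall, with smaller changes of -3.03 and -1.43. Of the 10 as ranked, the steps were called different for Mthfd1 alone. Among progenitor regulators, 4 of 18 were common falls (Myb, Gata2, Hoxa9 and Bcl11a) and 3 common rises (Erg, Runx1 and Ikzf1), close to the 22.5% and 17.4% of all genes, with -1.78 and -2.8 for Myb and -2.14 and -2.18 for Gata2. The myeloid call of Erg was lost without GMP replicate 1 (adjusted p 0.0642, limma) or without Mac1Gr1 replicate 1 (0.0687) or 3 (0.0523), another Runx1 probe was lower in the myeloid step (-1.08), and another Myb probe fell under 2-fold in the erythroid step (-0.86).

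Several brakes on division rose at both steps. Granulocytic and B cell markers rose in Ter119 as well, and the part of other cells in these rises was not tested. Of 20 cell cycle inhibitor and antiproliferative genes, 7 were common rises and none was a common fall, against 17.4% and 22.5% of all genes, with a median pooled change of 1.04. The median turned to -0.66 on the spike-in scale, where all genes lay at -1.69. Cdkn2d, the p19INK4d inhibitor, stood at 0.51, 0.65 and 0.62 in CFUe, 4.58, 5.1 and 5.1 in Ter119, 1.99, 2.09 and 1.94 in GMP and 5.48, 5.67 and 5.73 in Mac1Gr1. Cdkn1b, the p27 inhibitor, rose by 2.66 and 2.02. Btg1, an antiproliferative partner of mRNA deadenylases, stood at 2.1, 2.04 and 1.89 in CFUe, 5.51, 5.79 and 5.56 in Ter119, 3.44, 3.43 and 3.24 in GMP and 6.63, 6.89 and 6.75 in Mac1Gr1, and its relatives Btg2 and Tob1 rose by 2.84 and 4.04 and by 1.49 and 4.46. Gadd45a (1.99 and 2.38) and Gadd45g (1.99 and 5.43) completed the 7. On the spike-in scale Cdkn2d, Btg1 and Btg2 kept their calls in both steps, at 2.96 and 1.59 for Cdkn2d, while Cdkn1b stood at 1.29 and -0.017 and Gadd45a was called in neither. Cdkn1a, the p21 inhibitor, rose in the erythroid step and fell in the myeloid step (2.08 and -2.61), and Ccng2 was called in the erythroid step (3.22), with 0.97 in the myeloid step.

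FOXO factors, which growth factor signals hold out of the nucleus, were also higher relative to the 75th percentile. Foxo3 stood at -2.32, -2.06 and -1.73 in CFUe, 0.40, 0.37 and 0.24 in Ter119, -3.92, -3.83 and -3.69 in GMP and -0.05, -0.37 and -0.21 in Mac1Gr1, and its changes of 2.37 ± 0.16 and 3.6 ± 0.16 were called different. Foxo1 rose by 2.77 and 1.54. In all, 6 of 18 genes of this list were common rises, among them Sesn2, Klf6 and Trib1, and none was a common fall, against 17.4% and 22.5% of all genes. Another Klf6 probe was under 2-fold in the myeloid step (0.95). On the spike-in scale none of these 5 was called in both steps, with 0.996 and 1.57 for Foxo3 and -0.49 for Foxo1 in the myeloid step. Sesn2 dropped under 2-fold in the erythroid step without CFUe replicate 3 (0.982) or Ter119 replicate 1 (0.92). Pik3ip1 and Trib2 were called in opposite directions, with 2.18 and -3.41 for Pik3ip1 and -2.06 in the erythroid step for Trib2. Trib2 was above background on no GMP array and at least 6.13-fold higher in Mac1Gr1. After normexp background correction its myeloid rise was under 2-fold (0.97). The list median was 0.72, and -0.98 on the spike-in scale.

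**Figure D5:**
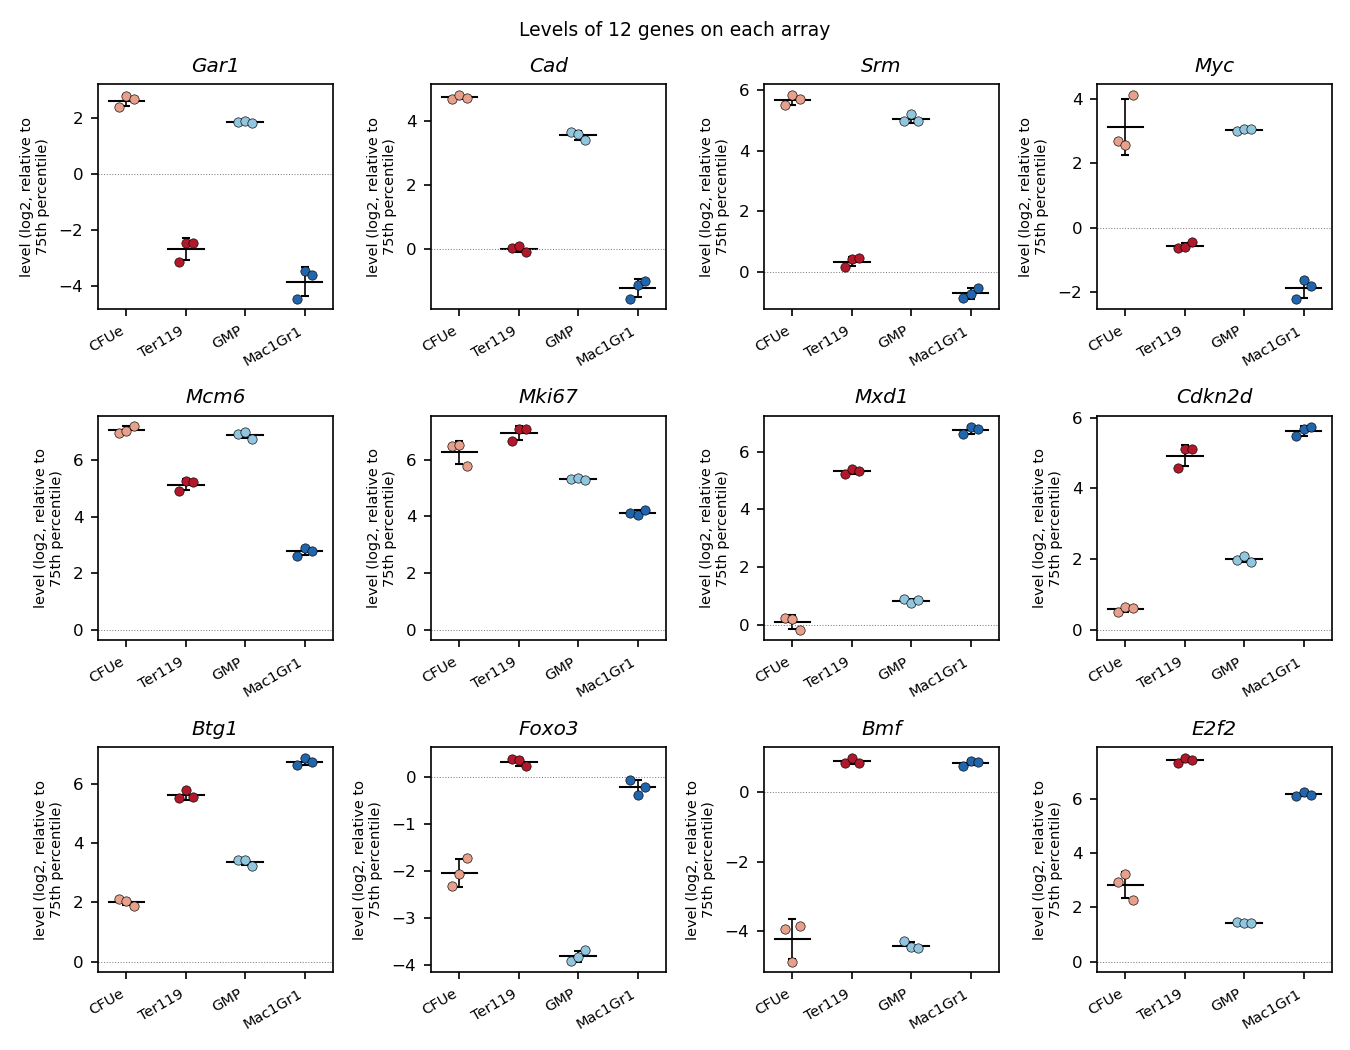
Levels of 12 genes (vertical axes, log2 relative to the 75th percentile of the array) on each of the 12 arrays, with the mean and SD of 3 arrays per fraction. Gar1, Cad, Srm and Myc are lower, and Mxd1, Cdkn2d, Btg1, Foxo3, Bmf and E2f2 higher, on all 6 mature arrays than on all 6 progenitor arrays, while Mki67 is not lower in Ter119 than in CFUe.

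Genes of autophagy and of the lysosome moved in mixed ways. Of 32 autophagy genes 7 were common rises and 3 common falls, against 17.4% and 22.5% of all genes, with a median pooled change of 0.79 that turned to -0.92 on the spike-in scale. The rises were the starter kinase gene Ulk1 (1.46 and 1.82), Map1lc3b (1.34 and 2.2) and Gabarap (1.03 and 2.08), which coat the autophagosome, Tfeb (1.26 and 2.48), a factor for lysosome genes, Atg4d, Atg16l2 and Bnip3l. Bnip3l, needed to clear mitochondria from red cells, rose by 3.95 and 1.43 with a called difference. On the spike-in scale none of the 7 was called in both steps, and Ulk1, Map1lc3b, Gabarap, Tfeb, Atg4d and Bnip3l turned negative in at least 1 step or the pooled comparison. Gabarap dropped under 2-fold in the erythroid step without CFUe replicate 1 (0.94), Ter119 replicate 2 (0.95) or Ter119 replicate 3 (0.965), as did Tfeb without CFUe replicate 3 (0.956) and with quantile scaling (0.88), the series table (0.88) or normexp (0.60). Tfeb was called in neither step once slide entered the fit as a fixed term (limma adjusted p 0.139 and 0.0971), nor in the erythroid step in the fit of all 21 arrays (0.126), and another Atg4d probe gave 0.73 there. Of 26 lysosome genes, 4 were common rises (Ctss, Neu1, Psap and Atp6v0a1) and 2 common falls (Gaa and Gusb), under the shares of all genes. None of the 4 rises was called in both steps on the spike-in scale, Ctss lost its myeloid call once slide entered the fit (1.35, adjusted p 0.105, limma), and Gusb fell under 2-fold in the erythroid step with quantile scaling (-0.70). Among 31 ubiquitin-conjugating enzyme genes, 3 were common rises (9.68%) and 6 common falls (19.4%), under the 17.4% and 22.5% of all genes. The rises were Ube2h (4.9 and 2.86), Ube2l6 (5.06 and 2.46) and Ube2b (3.06 and 1.88). Ube2h and Ube2l6 were called higher on the spike-in scale in the erythroid step and in the pooled comparison, and Ube2b turned to -0.15 in the myeloid step.

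Genes of the nuclear envelope moved mostly down, and those of chromatin in mixed ways. Of 34 nuclear envelope and pore genes 20 were common falls and 4 common rises, against 22.5% and 17.4% of all genes. The median pooled change was -1.49. Among the falls were the pore protein genes Nup93 (-3.36 and -3.82) and Nup62 (-2.78 and -2.93) and the transport genes Ran (-2.34 and -3.04) and Kpnb1 (-2.22 and -1.7). The 4 common rises were Syne1 (2.42 and 4.33), Syne2 and Sun2 (2.69 and 1.05), which link the nucleus to the cytoskeleton, and Nup155 (2.71 and 4.67), for which the other 2 probes were common falls (-2.7 and -2.53 pooled), so that its direction is not settled. The myeloid change of Sun2 was under 2-fold without GMP replicate 3 (0.992) or Mac1Gr1 replicate 2 or 3 (0.996 and 0.981) and negative on the spike-in scale. It was also under 2-fold with quantile scaling (0.96), normexp (0.89) and the series table (0.43). Another Sun2 probe gave 0.90 in the myeloid step and was no common rise. No CFUe array read Syne2 well above background, which puts Ter119 at least 80.7-fold higher, with 4.22 in the myeloid step. Xpo7 rose in the erythroid step (7.21) and fell in the myeloid step (-1.42). Of 23 chromatin genes, 7 were common falls (30.4%) and 3 common rises (13.0%), not far from the 22.5% and 17.4% of all genes. In the pooled comparison 11 were lower. The falls held Dnmt3b (-3.69 and -4.93), Dnmt1 (-1.14 and -2.43) and Ezh2 (-1.08 and -2.81). The erythroid falls of Dnmt1 and Ezh2 were under 2-fold with quantile scaling (-0.79 and -0.68), the series table and normexp. The rises were Ezh1 (1.36 and 1.78), Hdac5 (3.03 and 1.11) and Hmga2 (1.76 and 1.3). None of these 3 was called in both steps after normexp background correction or on the spike-in scale.

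The 10 leading common rises by the same ranking were Ltf, Ngp, S100a6, Camp, Lgals3, Lilra6, Adam8, Chil3, Lrg1 and Vpreb3. Ltf, Ngp and Camp are on the granulocytic marker list and encode proteins of neutrophil secondary granules. Ngp changed by 11.09 and 10.6 and Camp by 10.7 and 8.67. S100a6, a calcium-binding protein gene, stood at -3.31, -3.0 and -2.35 in CFUe, 7.72, 8.13 and 7.7 in Ter119, 0.27, 0.21 and -0.12 in GMP and 9.32, 9.62 and 9.76 in Mac1Gr1. The erythroid and myeloid changes were 8.38 and 7.63 for the galectin gene Lgals3, 7.6 and 9.43 for Lilra6, 7.52 and 10.58 for Adam8, 10.07 and 6.99 for Chil3 and 7.59 and 6.97 for Lrg1. For 9 of the 10 the Mac1Gr1 mean was above the Ter119 mean, and for Vpreb3, a partner of the B cell receptor precursor, Ter119 was higher. Vpreb3 stood at -2.1, -2.08 and -0.05 in CFUe, 6.13, 6.68 and 6.12 in Ter119, -2.61, -3.0 and -2.63 in GMP and 3.49, 4.17 and 4.3 in Mac1Gr1, and its changes stand beside the B cell marker values above.

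Since the leading rises are mostly higher in Mac1Gr1, the common rises were also ranked among the 961 genes at least as high in Ter119 as in Mac1Gr1. The first 10 were Vpreb3, Pou2af1, Blnk, Chst3, Cd74, Bmf, Hbb-bt, S1pr1, Hba-a1 and E2f2. Pou2af1 (7.22 and 6.1), a B cell coactivator gene, Blnk (5.48 and 5.57), an adaptor of the B cell receptor, and Cd74 (6.65 and 5.14), the invariant chain of MHC class II, moved with the B cell list, and Hbb-bt (7.46 and 4.99) and Hba-a1 are globin genes whose probes may read near-identical copies. Bmf, which encodes a BH3-only promoter of apoptosis, stood at -3.94, -4.86 and -3.83 in CFUe, 0.82, 0.97 and 0.84 in Ter119, -4.29, -4.45 and -4.48 in GMP and 0.74, 0.88 and 0.86 in Mac1Gr1. The mature fractions were level with each other, and the difference between the steps was -0.14 ± 0.32. Another Bmf probe was also a common rise, with smaller changes of 1.79 and 1.72. E2f2, a factor of the E2F family, stood at 2.94, 3.23 and 2.28 in CFUe, 7.32, 7.5 and 7.44 in Ter119, 1.46, 1.4 and 1.43 in GMP and 6.09, 6.24 and 6.14 in Mac1Gr1, a change of 4.6 and 4.72. Chst3, a chondroitin sulfotransferase gene, changed by 6.28 and 5.45 and the sphingosine phosphate receptor gene S1pr1 by 4.98 and 4.68. Another Chst3 probe was also a common rise, with smaller changes of 3.17 and 2.1. On the spike-in scale all 10 kept their calls in both steps. Their ranking by size set them well above the shift of that scale, so this says nothing of their stability.

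Opposite changes were rarer. At gene level 370 genes (2.67%) rose in the erythroid step and fell in the myeloid step, and 92 (0.664%) did the reverse. The 5 leading genes of the first kind, Ms4a3, Ctsg, Grn, Nkg7 and Prtn3, include genes of primary granules, which granulocyte progenitors make. Ctsg, for cathepsin G, stood at -0.99, -1.07 and 1.92 in CFUe, 4.08, 4.38 and 4.73 in Ter119, 8.64, 8.87 and 8.83 in GMP and 2.79, 3.3 and 3.51 in Mac1Gr1. GMP was highest, Ter119 was above Mac1Gr1, and CFUe replicate 3 again stood above the other CFUe arrays. Changes were 5.77 and -5.31 for Ms4a3 and 4.02 and -6.77 for Prtn3. For Grn, 5.26 and -4.39 on the probe reported, another probe was a common rise (3.7 and 1.33). Of the second kind, the leading 5 were Nfia, Vamp5, Slc41a3, Car1 and Crip2. Car1, an early erythroid carbonic anhydrase gene, stood at 7.18, 7.11 and 7.39 in CFUe, 0.40, 0.54 and 0.78 in Ter119, -1.71, -2.13 and -1.62 in GMP and 0.18, 0.12 and 0.35 in Mac1Gr1. Car1 changed by -6.65 and 2.04, to means of 0.57 in Ter119 and 0.22 in Mac1Gr1, and the factor gene Nfia by -5.27 and 2.63, to means of -1.97 and -0.73. On the spike-in scale the myeloid rises of these 5 were no longer called.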

How the data were processed

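RNA of 7 sorted marrow fractions was hybridised to Agilent 1-colour arrays, 3 per fraction. The authors read them with Agilent Feature Extraction (10.7.1.1 per the file headers) and deposited its processed signal intensity for each spot, background corrected by that software, together with a series table of log2 values. Rank correlations of that table with the scanner values were 0.9998 to 1.000 per array, and its scaling is not given in the sources used here.

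Control spots and outlier spots (80 to 283 per array, of 43379) were left out, spots of a probe averaged, and each log2 value taken relative to the 75th percentile of its array. Of 41174 probes, 64.8% had an accession that matched a RefSeq transcript and so received a gene symbol. A probe entered the tests if some fraction of the 4 had all 3 of its arrays well above background (28216 probes), and limma 3.58.1 was used under R 4.3.3. The pooled change came from an additive fit of lineage and stage (residual df 9), and the steps and their difference from a mean per fraction (residual df 8). Calls needed a Benjamini-Hochberg adjusted p under 0.05 and 2-fold. The number of arrays limits the precision, and no spot was saturated. On simulated data with 200 of 28216 probes changed by a log2 of 2 in both lineages, 188 were called in the pooled comparison, with 2 false calls, and 166 were recovered as common, with 0 false. The simulated arrays had independent noise, no lineage difference, no shift of scale and far fewer changed probes than the data. These counts check the code and do not measure false calls in the data.

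Genes were read from the probe with the highest mean. Named genes are the genes named in this text. They came from 17 gene lists, 8 marker lists (erythroid, granulocytic, B cell, T cell, megakaryocyte, macrophage, mast cell or basophil, stem cell) and ranked sets. The ranked sets were the 10 common rises and 10 common falls with the largest smaller step among genes above background on all 12 arrays and without overlap. They also held the 10 such rises with Ter119 at or above Mac1Gr1, and 5 opposite changes per direction. Members, lists and rules were chosen with earlier results of these data known. Results that need items withheld from this text are not reported here. Of 93 other probes of the named genes, 15 gave another call. The remaining genes of the lists were not checked in this way. Alternatives changed the scaling (quantile, or 7 of 10 spike-in probes), the source of values, the background correction (normexp, offset 50, on the median spot and background signals), the filters, the model and the arrays. Promoters came from RefSeq (GRCm38.p6) and were matched by symbol. Arrays were not paired by replicate number in the main fits. Correlations of deviations for the 18 same-numbered pairs ran from -0.17 to 0.26, and 7 exceeded 0.1. The highest, 0.249 to 0.263, were among replicate 2 of Ter119, GMP and Mac1Gr1. Different-numbered pairs reached 0.267 on a shared slide and 0.23 on separate slides. With 3 arrays per fraction, these values cannot settle whether same-numbered arrays shared a preparation.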

Additional observations from a re-analysis of the deposited data

Results flagged for a closer look

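The change differed between the steps by a called test (limma, Benjamini-Hochberg adjusted, 3 arrays per fraction) for 19 of the ranked genes, given here as erythroid minus myeloid change on the log2 scale. Among the leading common rises these were S100a6 (1.29), Chil3 (3.08), Lilra6 (-1.83) and Adam8 (-3.07), the first pair rising further in the erythroid step and the other pair in the myeloid step. Mthfd1 (-1.19) was the one leading common fall that differed, with the larger fall in the erythroid step. Among rises at least as high in Ter119 as in Mac1Gr1, Pou2af1 (1.13), Cd74 (1.5), Hbb-bt (2.47) and Hba-a1 (4.23) differed, each with the larger rise in the erythroid step. Opposite changes differ by their definition, with 11.08 for Ms4a3, 10.02 for Ctsg, 9.65 for Grn, 10.07 for Nkg7, 10.79 for Prtn3, -7.9 for Nfia, -5.58 for Vamp5, -5.24 for Slc41a3, -8.7 for Car1 and -4.08 for Crip2. The granulocytic, B cell and erythroid marker lists moved with several of these genes, and their part was not tested.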

How the results depend on the processing

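Leaving out each array in turn gave 15524 to 16196 pooled calls (8026 to 8714 higher, 7437 to 7632 lower), 15910 to 16657 for the erythroid step, 15860 to 17129 for the myeloid step, 11030 to 11855 for the difference, 4840 to 5549 common rises, 5482 to 5578 common falls and 766 to 857 opposite changes. The replicate block gave 8244 higher, 7489 lower, 5149 common rises and 5579 common falls and changed no call of a named gene. With 1 probe for each of 13847 genes, counts were 8026 pooled (3909 higher, 4117 lower), 8628 erythroid, 8159 myeloid, 5824 different, 2415 common rises, 3117 common falls and 462 opposite, since fewer probes entered. Over the 19606 probes above background on all 12 arrays they were 10293 pooled (4674 higher), 10660 erythroid, 7431 different, 2786 common rises and 347 opposite. After normexp, 5013 were higher, 2806 common rises and 302 opposite, and with no minimum fold 2265 were opposite. The cause was not tested for normexp, and the last count includes smaller changes by construction.

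Spike-in scaling gave 2304 higher, 17396 lower, 1335 common rises, 14524 common falls and 1420 opposite changes, since every change shifts down by the spike-in offset of the arrays. Among the alternatives it alone turned the sign of named genes (log2 changes). Of their 465 values, 52 kept their sign but lost a call on this scale, 21 after normexp, 15 in the series table, 14 with quantile scaling, 7 with the slide as a fixed block and at most 3 without any single array. Beside those given with their genes, Ubtf was under 2-fold in the pooled comparison without any single CFUe array or without Ter119 replicate 1 (-0.976), and Eif4ebp1 in the myeloid step without GMP replicate 3 (0.908). Calls were gained by Ccng2 in the myeloid step without GMP replicate 1 (1.06), Dars in the erythroid step without Ter119 replicate 1 (-1.02), and Eif5 and Xpo7 in the pooled comparison without any single GMP or Mac1Gr1 array. The values that turned in the pooled comparison were Slc41a3 -1.54, Crip2 -1.7, Ezh1 -0.13, Gabarap -0.15, Hmga2 -0.17, Max -0.32, Mxi1 -0.21, Runx1 -0.37, Srsf5 -1.0, Ube2c -1.59 and Ulk1 -0.065. In the erythroid step they were Atp6v0a1 -0.099, Ezh1 -0.012, Gabarap -0.35, Ikzf1 -0.15, Map1lc3b -0.033, Max -1.11, Mxi1 -0.026, Sesn2 -0.31, Srsf5 -1.1, Tfeb -0.12 and Ube2c -0.042. In the myeloid step they were Atg4d -0.65, Bnip3l -0.60, Bub1 -0.88, Ccng2 -1.06, Cdkn1b -0.017, Dars -1.31, Eif4ebp1 -0.97, Eif5 -1.72, Erg -0.20, Ezh1 -0.25, Foxo1 -0.49, Hdac5 -0.92, Hmga2 -0.73, Klf6 -0.72, Mxd3 -1.54, Mxi1 -0.40, Neu1 -0.75, Polr1a -0.88, Psap -0.066, Runx1 -0.95, Srsf5 -0.91, Sun2 -0.99, Ube2b -0.15 and Ulk1 -0.21. Spike-ins were added per mass of total RNA, so neither scale gives RNA per cell, and dim probes give only bounds.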

Other observations

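The 3 fractions left out of the comparison give the levels of leading genes before terminal maturation. Mxd1 stood at 0.73 ± 0.23 in KLS, 0.98 ± 0.13 in PreMegE and 0.84 ± 0.43 in PreGM (SD, n = 3 arrays each), in each at least 4 below both mature fractions. E2f2 stood at 1.75 ± 0.04 in KLS, 1.79 ± 0.07 in PreMegE and 1.60 ± 0.10 in PreGM, below its 2.82 ± 0.49 in CFUe and far below both mature fractions, and Smo lay at 3.39 ± 0.12, 3.37 ± 0.09 and 3.33 ± 0.18 in these fractions, against -2.45 ± 0.10 in Ter119 and -2.43 ± 0.43 in Mac1Gr1. Myc was higher in KLS (3.40 ± 0.17), PreMegE (3.72 ± 0.31) and PreGM (3.64 ± 0.35) than in either mature fraction.

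Other genes had already moved within the progenitors. The inhibitor gene Cdkn2d was 2.21 ± 0.21 in KLS and 3.33 ± 0.16 in PreMegE, above its level of 0.59 ± 0.07 in CFUe, and Btg1 stood at 4.15 ± 0.29 in KLS and 4.31 ± 0.26 in PreMegE against 2.01 ± 0.11 in CFUe. In both genes Ter119 stood above KLS by less than it stood above CFUe. Mt1 ran the other way, from 1.37 ± 0.54 in KLS to 6.59 ± 0.10 in CFUe and 5.09 ± 0.18 in GMP, and its level of 1.19 ± 0.11 in Ter119 was near that of KLS. These are descriptions of means and SDs, with no test.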
